A study of Homo sapiens with 2 samples.

Results

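The RNA of 45 genes of central carbon metabolism was measured in HEK293T, a cell line from human embryonic kidney with the large T antigen of SV40. The genes were chosen by name and not by a filter on their values, with earlier results of these data known. They were glucose transporters, the enzymes of glycolysis, lactate dehydrogenase, the pentose phosphate pathway and the tricarboxylic acid (TCA) cycle, and the pyruvate dehydrogenase subunits and kinases. All 45 of 45 symbols were matched among the 57736 genes listed. Poly(A)+ RNA was sequenced in 2 replicate libraries of wild type cells of this line, lysed separately once they had been held for 20 min at 43 °C and then for 6 h at 37 °C. Both libraries belong to 1 group, so no value here compares heat-treated with untreated cells, which were not analysed here. The labels give no separate cultures for the replicates, and a difference between them may be technical.

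Glycolysis splits glucose in the cytosol into pyruvate and yields ATP and NADH. Pyruvate is reduced to lactate by lactate dehydrogenase or enters mitochondria, where pyruvate dehydrogenase makes acetyl-CoA for the TCA cycle. The pentose phosphate pathway branches off at glucose 6-phosphate and supplies NADPH and ribose. Many of these steps have several isozymes, encoded by separate genes that are used to different extents by muscle, brain, liver and dividing cells. Proliferating cell lines are known for high glycolytic enzyme levels and for making lactate in the presence of oxygen.

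The libraries held 22529828 and 26890199 expected counts, the read numbers that the quantifier assigned to genes after sharing reads that map to several. Levels are given in TPM (a transcript's share of all transcripts, on a scale with the same total in each library), which corrects for transcript length, and a gene was called detected where both libraries gave it 1 TPM or more. The label names kidney as the tissue. Of 15 kidney epithelium markers in the table, 2 were detected (PAX2 and LRP2) and 6 had no count in either library, among them UMOD and AQP2. The 15 summed to 13.7 and 13.9 TPM. Of 7 neuronal lineage genes, 6 were detected, and the list summed to 494 and 479 TPM, most of it UCHL1. None of 7 skeletal muscle or 6 liver markers was detected, the muscle list summing to 0.70 and 1.43 TPM. Of 6 blood markers 2 were detected (the list summing to 15.7 and 13.5 TPM), and of 6 fibroblast markers 2 were (COL1A1 and COL3A1, 27.2 and 24.8 TPM). Their part in the levels of the metabolic genes was not tested.

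Upstream sequences of the leading and a lesser isozyme in each of 2 families are shown because the levels described here turn on such pairs. LDHA and LDHB encode the A and B subunits of lactate dehydrogenase, and ENO1 and ENO2 encode the common and the neuronal enolase. Each line gives the 250 bases before the start of transcription, from RefSeq (GRCh38.p14), at chr11:18394313-18394562 on the plus strand for LDHA (the first of 2 starts listed), chr12:21657843-21658092 on the minus strand for LDHB, chr1:8878687-8878936 on the minus strand for ENO1 and chr12:6914330-6914579 on the plus strand for ENO2. Capitals mark ACGTG on either strand, a form of the core of the hypoxia response element.
LDHA: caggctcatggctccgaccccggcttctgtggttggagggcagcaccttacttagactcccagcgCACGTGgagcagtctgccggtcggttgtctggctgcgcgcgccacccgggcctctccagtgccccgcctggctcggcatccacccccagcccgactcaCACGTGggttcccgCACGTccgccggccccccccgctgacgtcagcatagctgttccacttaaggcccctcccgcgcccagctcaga
LDHB: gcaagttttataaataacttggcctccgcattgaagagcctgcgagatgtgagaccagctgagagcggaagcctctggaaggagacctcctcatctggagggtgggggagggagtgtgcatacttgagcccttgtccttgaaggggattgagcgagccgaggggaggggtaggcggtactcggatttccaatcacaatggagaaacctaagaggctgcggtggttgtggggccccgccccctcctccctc
ENO1: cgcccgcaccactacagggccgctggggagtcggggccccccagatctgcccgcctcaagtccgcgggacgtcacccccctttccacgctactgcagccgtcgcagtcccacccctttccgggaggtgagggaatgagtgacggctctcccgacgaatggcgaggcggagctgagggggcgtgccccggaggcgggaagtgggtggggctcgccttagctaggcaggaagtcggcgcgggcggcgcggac
ENO2: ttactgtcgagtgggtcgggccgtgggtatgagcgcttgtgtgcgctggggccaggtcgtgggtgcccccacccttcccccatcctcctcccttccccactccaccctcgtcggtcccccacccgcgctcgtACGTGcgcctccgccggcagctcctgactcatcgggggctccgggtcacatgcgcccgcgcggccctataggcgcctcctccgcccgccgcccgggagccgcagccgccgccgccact
The LDHA sequence held 3 marked runs, which make 5 matches because CACGTG reads as a match on both strands. ENO2 held 1, and LDHB and ENO1 held no ACGTG in this window. GCGTG, another form of the core, was not marked and occurs in the ENO1 sequence. Upstream sequences were found for 43 of the 45 genes, all except SLC2A3 and OGDH. ACGTG occurred on either strand in 20 of their 69 promoters, 29.0%, against 18.5% of 35116 promoters of the same length. Some genes have several promoters, and the 20 belong to 17 of the 43 genes. GCGTG, which can overlap other matches, occurred in 34.8% of the members' promoters and in 32.2% of all. GAANNTTC and TTCNNGAA, the paired units of the heat shock element, each occurred in 4.35% of the members' promoters, against 5.78% and 6.62% of all. A match is a run of letters and not a bound site.

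All 45 genes were detected in both libraries, and 44 of them reached 5 TPM in both, the exception being ALDOC. The 12367 detected protein-coding genes had a median of 18.6 TPM, and 37 of the 45 lay above it. Among the highest 1236 of those genes, the top 10%, were 16 members. Together the 45 genes took 1.35% and 1.22% of all TPM in replicate 1 and replicate 2, a mean of 1.29% ± 0.0964 (SD, n = 2). Levels were uneven, and GAPDH, LDHA and ALDOA made up 46.5% of the members' mean TPM and the first 10 made up 78.8%.

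By pathway, the 16 glycolytic genes summed to 7961 and 6831 TPM, 57.4% ± 1.91 (SD, n = 2) of the members' TPM. The 2 lactate dehydrogenase genes summed to 2164 and 2190.5 TPM (17.0% of the members' TPM), and the 14 genes of the TCA cycle, counting both malate dehydrogenases, to 1989 and 1873 TPM (15.0%). This order depends on the scale: lactate dehydrogenase took 0.123% and the TCA cycle 0.204% of expected counts, and they took 0.182% and 0.255% per canonical transcript length over protein-coding genes. The 5 pentose phosphate genes summed to 884 and 749 TPM, and the 6 genes for pyruvate dehydrogenase subunits and kinases to 507 and 498 TPM. The 2 glucose transporters summed to 43.9 and 44.96 TPM, the lowest sum of the sets, which differ in their number of genes. Their median per gene was 22.2 TPM, beside 32.1 TPM for the pyruvate dehydrogenase subunits and kinases. Summed TPM of glycolysis exceeded that of the TCA cycle 4.003-fold and 3.65-fold, and median TPM per gene exceeded it 2.39-fold and 2.01-fold, so the order of these pathways was the same in both libraries. With 2 libraries a sign-flip permutation test cannot give a two-sided p below 0.5, and no test was made of these differences.

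**Figure D1:**
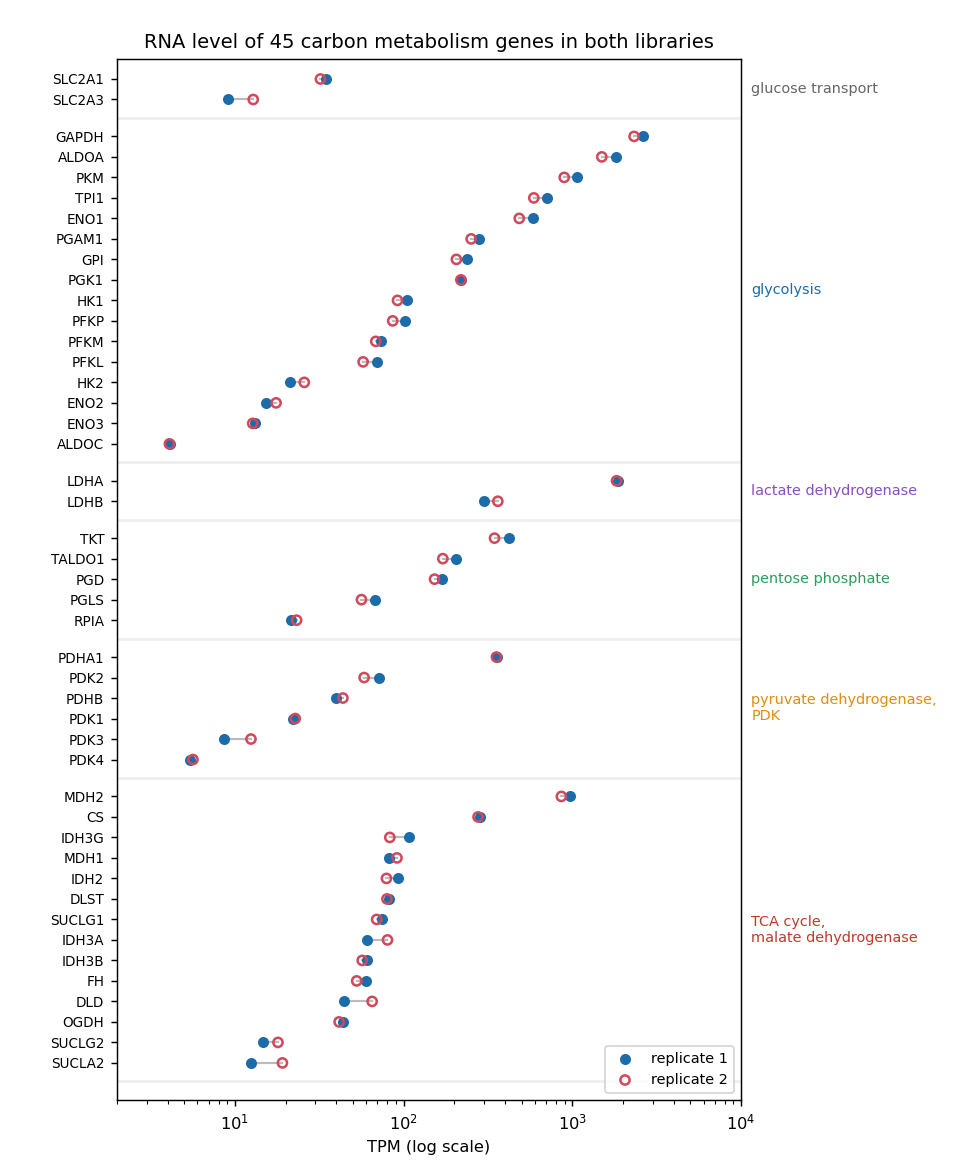
TPM (log axis) of the 45 genes, grouped by pathway and ordered by mean level, with replicate 1 as filled and replicate 2 as open circles. GAPDH, at 2638 and 2324 TPM, is the highest and ALDOC, at 4.12 and 4.09 TPM, the lowest, and the widest relative gap between the libraries is that of SUCLA2, at 12.5 and 19.1 TPM.

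Levels along glycolysis differed 20.4-fold between reactions in TPM when isozymes were summed. Hexokinase, which traps glucose as glucose 6-phosphate, was the lowest in both libraries at 126 and 118 TPM. The isomerase GPI had 237 and 206 TPM, and phosphofructokinase, the committed step of the pathway, 245 and 212 TPM. The next reactions were higher. Aldolase, which cleaves fructose 1,6-bisphosphate, had 1825 and 1500.0 TPM, and TPI1, which interconverts the triose phosphates, had 710.5 and 591 TPM. GAPDH, which makes 1,3-bisphosphoglycerate and NADH, was the highest at 2638 and 2324 TPM and stood 25th among detected protein-coding genes.

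Among the later reactions, PGK1, the first to yield ATP, had 219 TPM in both libraries, and PGAM1, the mutase, had 281 and 251 TPM. Enolase had 612 and 515 TPM, and PKM, pyruvate kinase, had 1068 and 896 TPM. Lactate dehydrogenase, at 2164 and 2190.5 TPM, was second to GAPDH. The 7 highest reactions kept their order in both libraries. PGK1 moved from rank 10 of 11 in replicate 1 to rank 8 in replicate 2, while phosphofructokinase stayed above GPI in both libraries. In counts per length of the canonical transcript, a scale taken up again for the isozymes, GAPDH was still the highest, but lactate dehydrogenase was the 4th and PGK1, in place of hexokinase, the lowest, 48.8-fold below GAPDH.

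**Figure D2:**
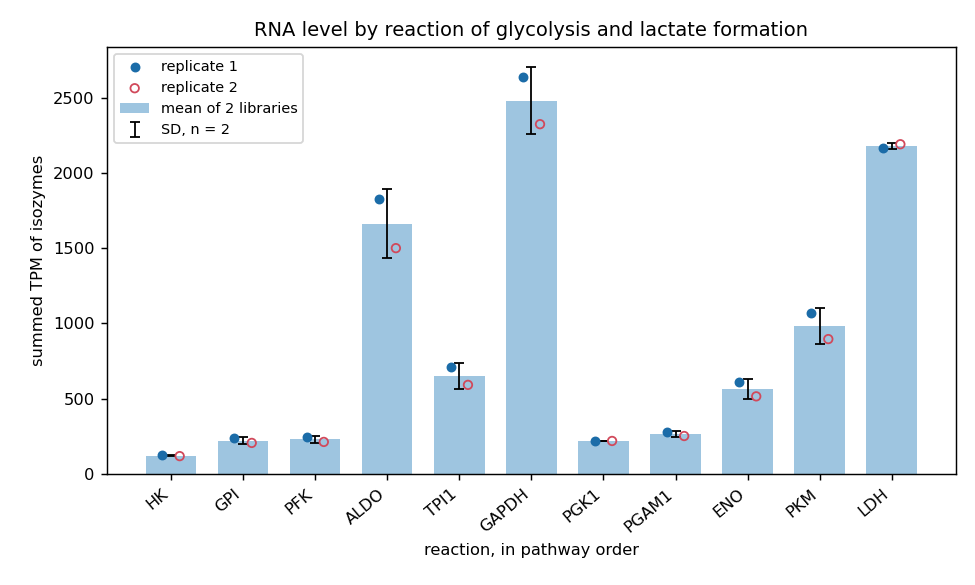
Summed TPM of the isozymes of each reaction, in pathway order from hexokinase (HK) to lactate dehydrogenase (LDH), with bars at the mean, error bars for the SD of 2 libraries and circles for each library. The reactions from HK to PFK lie between 118 and 245 TPM, while aldolase, GAPDH and LDH each have at least 1500.0 TPM in both libraries.

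Isozyme families were mostly led by 1 gene. HK1, the hexokinase of most tissues, had 104 and 92.0 TPM, and HK2, the hexokinase of muscle and many tumours, had 21.3 and 25.8 TPM. HK1 thus held 80.6% ± 3.47 (SD, n = 2) of hexokinase TPM and was higher in both libraries, 4.89-fold and 3.57-fold. Aldolase was almost wholly ALDOA, the muscle and general form, at 1821 and 1496 TPM, which was 99.75% ± 0.0332 of the family. ALDOC, the brain form, had 115 and 128 counts. Enolase was 94.7% ± 0.871 ENO1, at 583 and 485 TPM. ENO2, the neuronal form, had 15.3 and 17.5 TPM, and ENO3, the muscle form, had 13.2 and 12.8 TPM. ENO2 was above ENO3 in both libraries, 1.16-fold and 1.38-fold in TPM, although the quantifier's 95% credibility bounds for them overlapped in each. Those bounds belong to the posterior mean and did not contain the deposited TPM of 10 members in replicate 1 and 7 in replicate 2. Of the marker lists given above, the neuronal one had 6 detected genes, ENO2 itself among them, and the muscle one had 0.

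Phosphofructokinase was shared among its genes more evenly than the hexokinase, aldolase, enolase, lactate dehydrogenase and PDK families. PFKP, the platelet form, had 101 and 86.2 TPM, PFKM, the muscle form, had 73.8 and 68.4 TPM, and PFKL, the liver form, had 69.99 and 57.5 TPM. Their shares were 41.0% ± 0.491, 31.2% ± 1.5 and 27.8% ± 1.01 (SD, n = 2). PFKP was the highest in both libraries, and the ranges of PFKM and PFKL over the libraries overlapped.

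LDHA, whose subunit favours the reduction of pyruvate, had 1864 and 1829 TPM, and LDHB, the heart form, had 300.1 and 362 TPM. LDHA held 84.8% ± 1.88 (SD, n = 2) of the family and exceeded LDHB 6.21-fold and 5.05-fold. In GRCh37, the build of the deposited values, LDHA (ENSG00000134333) lies at chr11:18416107-18429972 and LDHB (ENSG00000111716) at chr12:21788276-21910791. Of the kinases that phosphorylate and inactivate pyruvate dehydrogenase, PDK2 had 71.7 and 58.3 TPM and PDK1, a known target of hypoxia signalling, 22.2 and 22.8 TPM. PDK3 had 8.66 and 12.4 TPM, and PDK4, a kinase raised by fasting in many tissues, 5.41 and 5.64 TPM. The order PDK2, PDK1, PDK3, PDK4 was the same in both libraries, with PDK2 at 62.6% ± 5.38 of the family.

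TPM divides by a length that depends on which transcripts the quantifier assigned reads to, so the shares were also taken from counts per length of the annotation's canonical transcript. That length was 0.94 to 5.60 times the length used in TPM over the members, and more than 2 times it for 11 of them. The largest ratio belonged to PDK1, whose canonical transcript is 14072 bases long, and PDHA1 (4.78), PGK1 (4.599), PDK2 (3.43), PDK4 (3.32) and LDHA (3.29) were also high. On this scale LDHA still led its family at 70.9% and HK1 at 77.6%. PDK3, at 31.2%, stood above PDK1, at 11.2%, reversing their order, while PDK2 led at 53.0%. PFKP led at 48.1% with PFKL at 34.04% and PFKM at 17.9%, again in another order. The leading gene of each of the 6 families was the same on both scales.

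**Figure D3:**
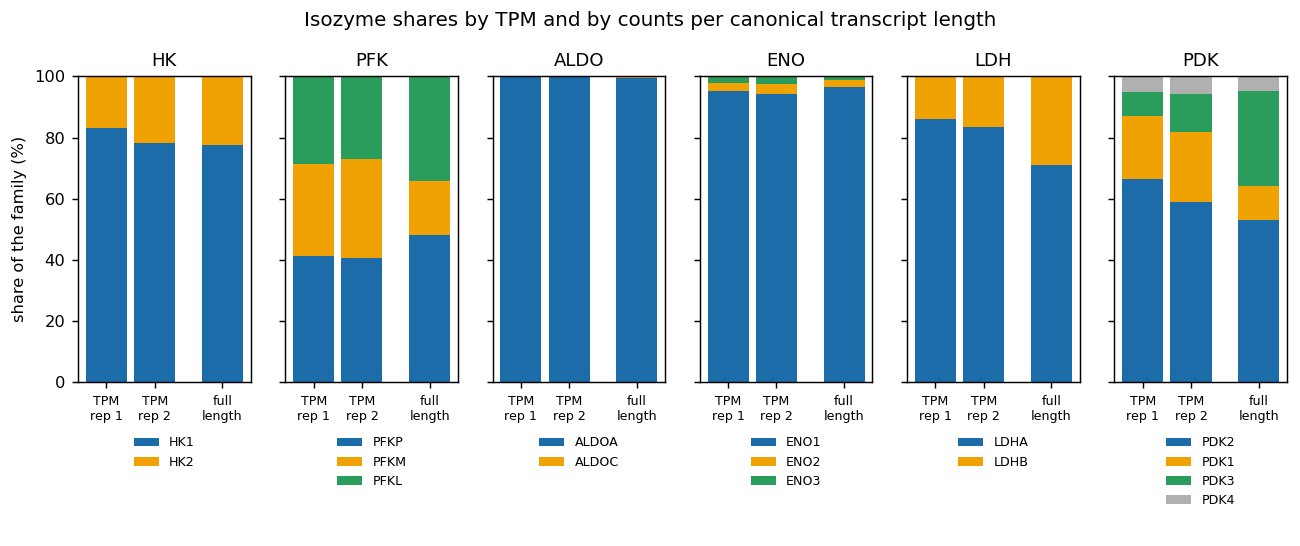
Share of each isozyme in its family (percent, bars from 0 to 100), by TPM in each library and, in the bar on the right, by counts per canonical transcript length averaged over both libraries. HK1, PFKP, ALDOA, ENO1, LDHA and PDK2 are the largest segments in every bar, while PFKM and PFKL, and PDK1 and PDK3, exchange places between the scales.

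The glucose transporters stood 34th and 42nd among the 45 members by mean TPM. SLC2A1 (GLUT1), the basal transporter, had 34.8 and 32.1 TPM, and SLC2A3 (GLUT3), the high-affinity neuronal form, had 9.12 and 12.8 TPM. SLC2A1 was 75.3% ± 5.51 (SD, n = 2) of the pair. In the pentose phosphate pathway, TKT, the transketolase, was the highest at 421 and 346 TPM. TALDO1, the transaldolase, had 205 and 171 TPM, and PGD, which makes NADPH and ribulose 5-phosphate, had 169.8 and 152 TPM. PGLS, the lactonase, had 67.4 and 56.2 TPM, and RPIA, the ribose 5-phosphate isomerase, had 21.4 and 23.2 TPM. All except RPIA were higher in replicate 1, and the order of the 5 genes was the same in both libraries.

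At the entry to the TCA cycle, PDHA1, the alpha subunit of pyruvate dehydrogenase, had 359 and 355 TPM, and PDHB, the beta subunit, had 39.8 and 43.7 TPM. The subunits, which pair in the complex, differed 8.56-fold in TPM but 1.87-fold in counts per canonical transcript length, so the size of the difference depends on the length used. CS, citrate synthase, had 284 and 276 TPM. MDH2, the mitochondrial malate dehydrogenase, was the highest of the cycle at 968 and 861 TPM and held 91.3% ± 1.23 (SD, n = 2) of TPM beside MDH1, the cytosolic form, at 82.5 and 91.4 TPM.

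The remaining members that belong to the cycle lay between 12.5 and 108 TPM. The subunits of NAD-dependent isocitrate dehydrogenase were IDH3G at 108 and 82.8 TPM, IDH3A at 61.0 and 80.2 TPM, and IDH3B at 60.7 and 56.8 TPM. IDH3A was next to IDH3B in replicate 1 and next to IDH3G in replicate 2, with overlapping bounds in each case. Per canonical transcript length IDH3A was the lowest of the family, at 17.6%, with IDH3B at 32.1% and IDH3G at 50.2%. IDH2, the NADP-dependent mitochondrial enzyme, had 92.5 and 79.1 TPM. Of the 2-oxoglutarate dehydrogenase complex, DLST had 82.4 and 79.6 TPM, OGDH 43.7 and 41.5 TPM, and DLD, shared with pyruvate dehydrogenase, 44.6 and 65.1 TPM. SUCLG1, the alpha subunit of succinyl-CoA synthetase, had 74.4 and 69.2 TPM. Its alternative beta subunits SUCLG2 (GTP-forming, 14.6 and 18 TPM) and SUCLA2 (ATP-forming, 12.5 and 19.1 TPM) changed order between the libraries. FH, fumarase, had 59.8 and 52.7 TPM.

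The libraries were then compared with each other gene by gene. The comparison was an exact binomial test on counts, two-sided, with Benjamini-Hochberg adjustment over 19714 genes, and it compares these libraries and not conditions. Of the 45 genes, 36 passed at an adjusted p under 0.05, beside 42.2% of all genes tested. Higher in replicate 1 were 28 (20.1% of all genes) and higher in replicate 2 were 8 (22.1% of all). The test gains calls with counts, and the members' summed counts ran from 237 to 115799. Among genes with at least 1000 counts, 33 of 39 members passed, beside 70.6% of all such genes. No member had a log2 ratio of 1 or more in size. Over all genes tested, which reach down to 10 summed counts, 5.73% both passed and reached that ratio. No such share is given for genes with counts like those of the members.

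Log2 ratios are of replicate 2 over replicate 1. Their median was -0.18 over the members and 0.02 over all genes tested. Glycolysis had a median of -0.27, with 12 of 16 genes passing as higher in replicate 1, and the pentose phosphate genes had -0.35, with 4 of 5. HK2 was the 1 glycolytic gene that passed as higher in replicate 2, at a log2 ratio of 0.18. The TCA cycle genes had a median of -0.18, with 9 of 14 passing as higher in replicate 1 and 3 as higher in replicate 2. The largest ratios were those of SUCLA2, from 293 to 555 counts (log2 0.64, adjusted p = 3.1e-09 by the exact binomial test), DLD, from 1324 to 2192 counts (0.45), and PDK3, from 295 to 475 counts (0.40). PDK2, from 1283 to 1186 counts, had a log2 ratio of -0.40 after scaling to depth. The binomial test allows for counting spread alone. When a spread between replicates was assumed (edgeR's exact test, biological coefficient of variation 0.1), 0 members passed, beside 7.69% of all genes. At an unadjusted p under 0.05 in that edgeR test there were 2, DLD and SUCLA2. The common coefficient estimated from the 2 libraries as replicates was 0.203, above the 0.1 assumed.

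The ratio moved with GC content, the percentage of G and C bases in the reference transcripts. Of 17 members with GC below 50%, 11 were higher in replicate 2, and of 28 with GC from 50%, 2 were. Over the 45 genes, Pearson's r of GC with the log2 ratio was -0.74 and Spearman's rho -0.72, and r over 13544 genes was -0.62. These points share the same libraries, and the coefficients are descriptions. After the trend over all genes was removed, 27 members passed, beside 29.2% of all genes in either direction. With at least 1000 counts, 26 of 39 members passed, beside 50.8% of all such genes. No share of all genes by direction is given for this setting, so the 27 are not split by direction. The members' median log2 ratio was then -0.12, beside 0.0005 over all genes tested and -0.044 over genes with at least 1000 counts. LDHB turned from 0.15 to -0.10, and FH, SUCLG1 and MDH1 moved to -0.56, -0.45 and -0.33. SUCLA2 kept a ratio of 0.26 (adjusted p = 0.040 by the exact binomial test) and DLD turned to -0.10. The part of GC content in these differences was not tested further.

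**Figure D4:**
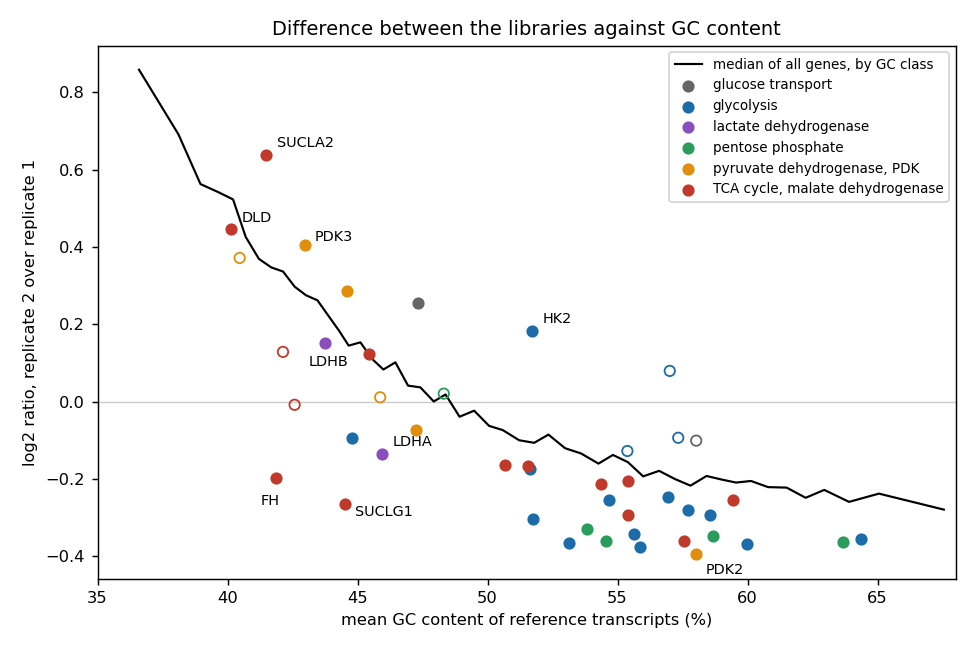
Log2 ratio of replicate 2 over replicate 1 against mean GC content of the reference transcripts, with members coloured by pathway (filled where the exact binomial test passed, open where it did not) and a line for the median of all genes by GC class. Members with GC from 50% lie mostly below 0, while SUCLA2, at 0.64, lies above the line and FH and SUCLG1 lie below it.

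Near-identical copies can draw reads from these genes. The annotation names 122 pseudogenes after 21 of the members, 64 of them after GAPDH. Of the 122, 53 had no count in either library and 3 were detected. Together they held 0.172% ± 0.0275 (SD, n = 2) of the TPM of members and copies. The highest were GAPDHP35 at 5.96 and 5.29 TPM, LDHAP7 at 1.81 and 2.11 TPM and ENO1P4 at 1.37 and 1.55 TPM. GAPDHP21 had 0.47 and 1.71 TPM and TPI1P1 0.94 and 0.86 TPM. The posterior SD of a member's count, which measures how uncertainly reads were shared, was at most 2.00% of the count. The largest share of copies in the TPM of a parent and its copies was 3.74%, for SUCLG2.

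Of 63 further genes of the same pathways, 39 were detected and 9 had no count in either library. Those without a count were tissue-restricted forms: SLC2A2, HK3, GAPDHS, PGK2, PGAM2 and PKLR in glycolysis, TKTL2 and PRPS1L1 in the pentose phosphate pathway, and PDHA2 of pyruvate dehydrogenase. A count of 0 allows up to 3 counts, or 0.133 and 0.112 CPM (counts scaled to the library total) in these libraries. Highest in the glycolysis list were SLC16A1, the lactate transporter MCT1, at 196 and 229.6 TPM, PFKFB3 at 31.8 and 31.6 TPM, which sets the level of a phosphofructokinase activator, and ADPGK at 28.2 and 28.1 TPM. In the pentose phosphate list, PRPS1 and PRPS2, which make the ribose donor of nucleotides, had 158 and 151 TPM and 30.0 and 40.3 TPM. DLAT and PDHX of the pyruvate dehydrogenase complex had 52.8 and 57.5 TPM and 45.2 and 52.7 TPM, and MPC1, of the mitochondrial pyruvate carrier, had 48.2 and 47.1 TPM. In the TCA cycle list, ACLY, ATP citrate lyase, had 232 and 214 TPM, and SDHC and SDHA of succinate dehydrogenase had 132 and 126 TPM and 101 and 92.4 TPM. Between the libraries, 20 of 46 tested genes (43.5%, beside 42.2% of all genes) passed, 12 higher in replicate 1 and 8 higher in replicate 2. SLC16A7 (7 and 33 counts, log2 1.88) and TKTL1 (27 and 15 counts, log2 -1.11) were the ones that passed with a log2 ratio of at least 1 in size, both at low counts.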

How the data were processed

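Poly(A)+ RNA of 2 replicate libraries of 1 group (HEK293T, 20 min at 43 °C, 6 h at 37 °C) was sequenced with 50 bp reads. Times are those of the labels. For an experiment with a shorter recovery the study's text gives a longer heating time. The molecule is labelled genomic DNA, against the labels' own protocol. Per the labels' processing notes the authors used Trimmomatic 0.36, STAR 2.6.1c and RSEM 1.3.1 with GRCh37, while the methods name featureCounts. Whether counting used the strand is not given in sources used here. The deposited expected counts share multi-mapped reads among genes. The deposited TPM and FPKM values are scaled by the authors to effective length and library total. A table of the whole series was read as the authors' pooled values.

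Positions, lengths and GC content came from GENCODE (GRCh37), which matched 96.1% of identifiers. Rounded expected counts of 19714 genes whose counts summed to 10 or more were compared by an exact two-sided binomial test (small-p method up to a sum of 2000, doubled tail above) with edgeR's TMM sizes and Benjamini-Hochberg adjustment, in place of a quasi-likelihood test, which 1 group does not allow. Log2 ratios used a pseudocount of 0.5. The GC trend was the median ratio in each of 50 GC classes, interpolated between them. Alternatives were library totals, DESeq2 size factors, other count minimums, an assumed spread in edgeR's exact test, expected counts and, chosen after seeing the data, canonical transcript lengths and a minimum of 1000 counts. The fit was tested on simulated data. All 45 members are named. Of other genes, the 3 highest per list, those that passed with a log2 ratio of at least 1 and the 5 highest pseudogenes are named by rule (1 gene is not reported here), and those at 0 were added after their values were seen. The members and lists were chosen with earlier results of these data known.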

Additional observations from a re-analysis of the deposited data

How the results depend on the processing

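No paired analysis was possible because both libraries belong to 1 group. With nuclear copies of mitochondrial genes left out of the total, the 45 genes took 1.59% of TPM, glycolysis 0.916% and the TCA cycle 0.239%. Over protein-coding genes alone they took 1.78%, 1.02% and 0.267%, and per canonical transcript length 1.94%, 1.33% and 0.255%. By expected counts the TCA cycle took 0.204%, HK1 69.0% of hexokinase, PFKP 45.05% of phosphofructokinase, ALDOA 99.61% of aldolase, ENO1 96.1% of enolase, LDHA 80.7% of lactate dehydrogenase, PDK2 43.9% of the kinases, and pseudogenes 0.138%. PDK2 led PDK1 in expected counts in replicate 1 (1283 and 898) but not in replicate 2 (1186 and 1331). Per canonical transcript length the shares were 48.1% for PFKP, 99.61% for ALDOA, 96.5% for ENO1, 70.9% for LDHA and 53.0% for PDK2. Left out 1 at a time, the libraries gave 45 to 45 detected members, 1.22% to 1.35% of TPM, glycolysis at 0.683% to 0.796%, the TCA cycle at 0.187% to 0.199%, HK1 at 78.1% to 83.0%, PFKP at 40.6% to 41.3%, ALDOA at 99.73% to 99.77%, ENO1 at 94.1% to 95.3%, LDHA at 83.5% to 86.1%, PDK2 at 58.8% to 66.4% and pseudogenes at 0.152% to 0.191%.

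Between the libraries, 36 members passed, 27 with the GC trend removed (of 5569 genes in all, against 8310), and 0 with an assumed coefficient of variation of 0.1 (1516 in all). Library totals gave 34, beside 41.4% of all genes tested, and DESeq2 size factors 36, beside 42.4%. Minimums of 1 and 100 counts gave 35 and 36, beside 25.0% and 57.0%. A minimum of 1000 counts, with adjustment within those genes, gave 33 of 39 members, beside 73.2%. With the GC trend removed, the median log2 ratio was -0.12, and LDHB (-0.10), IDH3A (-0.017), DLD (-0.10) and SUCLG2 (-0.23) changed sign, as did 6 members that passed with neither setting (SLC2A1, ALDOC, ENO3, RPIA, PDHB and PDK4). The cause was not tested. Precision is limited by 2 libraries and, for PDK4, by 237 counts in all.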
